A study of Xenopus laevis with 4 samples.

Results

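The genes described here are the myogenic regulators myod1, myf5 and myf6 and the presomitic regulator msgn1 of Xenopus laevis, each looked for as its .L and .S homeolog. They were taken from the table by symbol, and 7 of the 8 symbols were measured among 21531 genes: myod1.L, myod1.S, myf5.L, myf5.S, myf6.S, msgn1.L and msgn1.S. The eighth, myf6.L, was not analysed here. The tissue was ventral mesoderm of gastrulae, and the labels give the injected RNAs as the only alteration. In the sox8 CRISPR group (2 libraries), embryos received Cas7-11 mRNA together with guides against sox8. In the control group (2 libraries), they received Cas7-11 mRNA and no guides, so both groups carried the nuclease and differed by the guides. Cas7-11 is a guide-directed nuclease that cuts RNA and leaves the gene intact, so sox8 CRISPR lowers a transcript and deletes nothing. There was no group with unrelated guides, and the explants were whole pieces of ventral tissue rather than sorted cells. Whether a library came from 1 embryo or a pool was not given in the sources used here beyond sample titles that number the embryos and a design text that calls them biological replicates.

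Myod1, Myf5 and Myf6 are basic helix-loop-helix (bHLH) transcription factors that pair with E proteins, bind E-box sequences and commit mesodermal cells to skeletal muscle, while Id proteins take up the E proteins and block them. Msgn1 (mesogenin) is a bHLH factor of unsegmented presomitic mesoderm. In mouse it acts with Tbx6, and in mouse and zebrafish it drives cells out of the progenitor state. In the Xenopus gastrula myod1, myf5 and msgn1 are all transcribed in the ring of mesoderm around the blastopore, msgn1 in its ventrolateral part and myf5 most strongly further dorsally, whereas myf6 belongs to later muscle. X. laevis is an allotetraploid, and most of these genes exist as a homeolog on an L chromosome and another on its S partner.

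The 4 libraries held 18427818 to 24108577 reads on genes in the sox8 CRISPR group and 18189895 to 20783274 in the control group. Of the 21531 genes, 3.10% and 17.9% were listed at 0 in the sox8 CRISPR libraries, against 5.99% and 4.59% in the controls, so sox8 CRISPR replicate 2 stood apart from the other 3 libraries in genes without a read. The targeted transcript was measured as sox8.L at 26.9 and 25.4 normalized counts in sox8 CRISPR, against 508 and 927 in controls, and it fell by 4.66 on the log2 scale (SE 0.97; limma, adjusted p = 0.0436), a call made in 6 of 14 fits. Its homeolog sox8.S had 134 and 0 normalized counts in sox8 CRISPR, against 14.1 and 43.7 in controls, and the groups overlapped. The 22 ventral mesoderm marker genes (ventx, bmp4, szl, gata2, msx, bambi) summed to 4663 and 7860 normalized counts in sox8 CRISPR and 64635 and 70355 in controls, with 22 of 22 lower in both sox8 CRISPR libraries and gata2.S at 0 in both of them. The 23 organizer and notochord marker genes summed to 88214 and 11968 in sox8 CRISPR and 992 and 1509 in controls, with 17 of 23 higher in both sox8 CRISPR libraries, and with chrd.1.L, chrd.2.L, admp.S, otx2.L, shh.L and shh.S at 0 in both controls. Of the other marker lists, 7 of 21 epidermal, 8 of 16 neural, 2 of 11 endodermal and 3 of 8 germ plasm genes lay wholly above the controls in sox8 CRISPR, where 17% of all genes did, and 1, 3, 2 and 2 lay wholly below, where 19.1% did, with 0 called in any of these lists by limma. The epidermal genes summed to 64932 and 87094 in sox8 CRISPR, against 40339 and 23403 in controls. The neural sums overlapped, at 23671 and 68372 in sox8 CRISPR, against 39855 and 14543 in controls. The endodermal sums were 2605 and 1151 against 940 and 443, and the germ plasm sums 1771 and 1555 against 2608 and 2509. The median log2 fold changes ran against these sums, at -1.19 for the endodermal and 0.76 for the germ plasm genes. In sox8 CRISPR replicate 2, 6 of the 11 endodermal genes were at 0. The dorsal and ventral markers thus differed strongly between the groups, although all 4 libraries carry a ventral label. From this RNA-seq the paper reports lower ventx and bmp and higher gsc, not and chrd in ventral tissue after sox8 knockdown. In undissected sox8 CRISPR embryos, the paper reports by in situ hybridization a ventral spread of wnt11b and less kremen2 and bmp7. By staining, it reports more nuclear β-catenin and less pSmad in ventral cells. By in situ hybridization of whole sox8 CRISPR embryos, the paper also reports shorter axial expression of myoD, chordin and brachyury. That measures the length of a domain, not the RNA level of ventral explants given here. Whether the dissected pieces also differed in their tissue was not tested. The ventral and organizer sums differed between the same groups that every comparison given here sets against each other. The part of these marker differences in those comparisons was not tested.

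The myogenic genes myod1.L, myf5.L and myf5.S had more reads in both sox8 CRISPR libraries than in either control, with means 13.6, 4.22 and 7.59 times as high, and myod1.S was 2.31 times as high on average with touching groups. The presomitic msgn1.L was lower in both sox8 CRISPR libraries, at a mean 3.61 times lower, and msgn1.S was 2.09 times lower on average with overlapping groups. After adjustment over all 21531 genes none of the 7 passed the limma test, which was made on log2(normalized count + 1) and called a gene at an adjusted p under 0.05 with an absolute log2 fold change over 0.58. That rule called 72 genes, or 0.334%. At an unadjusted p under 0.05, 4 of the 7 passed, against 6.79% of all genes. Of the 7, 3 lay wholly above the controls in sox8 CRISPR, where 17% of all genes did so, and 1 lay wholly below, where 19.1% did so. DESeq2 on the recovered reads called 2 of the 7 (1.96% of all genes) and edgeR called 0 (0.506% of all genes). In whole pieces of tissue, fewer cells of a type and less RNA per cell cannot be told apart.

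**Figure D1:**
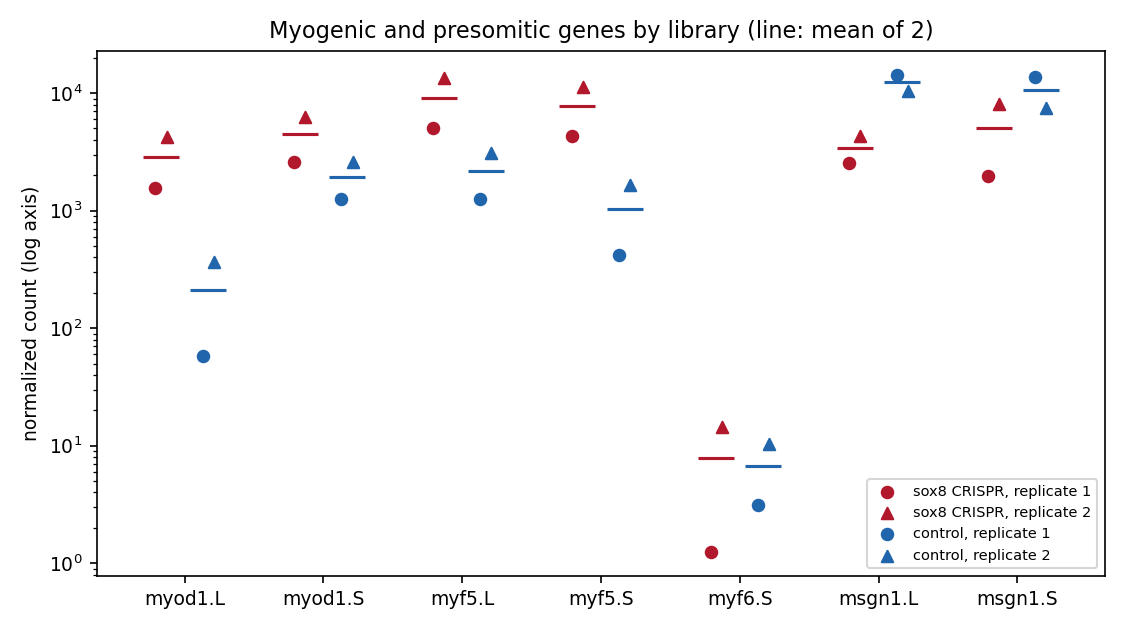
Normalized counts (log axis) of the 7 genes in each library, with sox8 CRISPR in red left of control in blue, circles for replicate 1, triangles for replicate 2 and lines for the mean of 2 libraries. The red points of myod1.L, myf5.L and myf5.S lie above both blue points, those of msgn1.L lie below both, and myf6.S stays under 15 normalized counts in every library.

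The gene myod1.L lies on chromosome 4L at 404724 to 407489 of the v10.1 assembly and encodes one of the 2 copies of Myod1, the factor that can turn other cell types into muscle. Its normalized counts were 1553 and 4204 in sox8 CRISPR, against 57.8 and 365 in controls, or 2879 ± 1874 against 211 ± 217 (mean ± SD, n = 2 each). The lower sox8 CRISPR library was above the higher control library by a factor of 4.26. The low end rests on 37 reads in control replicate 1. The log2 fold change was 4.12 (SE 0.87, 95% interval 2.29 to 5.96), the 74th smallest p among all genes, and the adjusted p of 0.0506 from limma missed the threshold narrowly. DESeq2 gave an adjusted p of 0.00392 and edgeR 0.102. The fold change was 4.84 without sox8 CRISPR replicate 1 and 3.41 without sox8 CRISPR replicate 2. It was 2.80 without control replicate 1 and 5.44 without control replicate 2.

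Its homeolog myod1.S, on chromosome 4S at 23265125 to 23267706, had 2590 and 6303 normalized counts in sox8 CRISPR, against 1263 and 2591 in controls. The groups touched: sox8 CRISPR replicate 1 and control replicate 2 held the same level to within 1 normalized count. The log2 fold change of 1.16 (SE 0.77, 95% interval -0.47 to 2.79; limma, adjusted p = 0.821) was within the spread of the replicates. In controls most myod1 reads were thus from the S copy, which had 809 and 3259 reads, against 37 and 459 for the L copy.

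Myf5, the earliest of the myogenic factors to appear in many vertebrate embryos, was measured as myf5.L (chromosome 3L, 59688119 to 59691151) and myf5.S (chromosome 3S, 94842246 to 94845406). The count of myf5.L was 5003 and 13346 in sox8 CRISPR, against 1257 and 3092 in controls, which do not overlap. Its log2 fold change was 2.05 (SE 0.82, 95% interval 0.32 to 3.79; limma, unadjusted p = 0.0232, adjusted p = 0.648). The count of myf5.S was 4332 and 11327 in sox8 CRISPR, against 420 and 1643 in controls. Its log2 fold change was 3.07 (SE 0.82, 95% interval 1.34 to 4.80; limma, unadjusted p = 0.00154, adjusted p = 0.177), the 188th smallest p. The adjusted p of myf5.S was 0.0290 with DESeq2 and 0.320 with edgeR, whereas that of myf5.L was 0.188 with DESeq2. Without control replicate 1 the fold changes were 1.40 for myf5.L and 2.09 for myf5.S, and without control replicate 2 they were 2.70 and 4.06.

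The late myogenic gene myf6.S lies 7669 bases from myf5.S on chromosome 3S (94853076 to 94857022), and the L copies are neighbours in the same way, 7772 bases apart. It had 2 and 12 reads in sox8 CRISPR, against 2 and 13 in controls, or 1.25 and 14.5 against 3.12 and 10.3 normalized counts. With so few reads no difference was detectable: the log2 fold change was -0.21 (SE 2.17, 95% interval -4.78 to 4.35), and its sign turned under 5 of 12 alternatives.

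Msgn1 was measured as msgn1.L (chromosome 5L, 153190935 to 153191934) and msgn1.S (chromosome 5S, 129436360 to 129436881). The count of msgn1.L was 2522 and 4332 in sox8 CRISPR, against 14373 and 10384 in controls, or 3427 ± 1280 against 12379 ± 2821 (mean ± SD, n = 2 each). Both sox8 CRISPR libraries were below both controls. The log2 fold change was -1.89 (SE 0.83, 95% interval -3.64 to -0.14; limma, unadjusted p = 0.0362, adjusted p = 0.699), and DESeq2 gave an adjusted p of 0.177. The count of msgn1.S was 1972 and 8107 in sox8 CRISPR, against 13591 and 7519 in controls. Here sox8 CRISPR replicate 2 lay above control replicate 2, so the groups overlapped, and the log2 fold change was -1.34 (SE 0.90, 95% interval -3.23 to 0.55; limma, adjusted p = 0.821). Leaving out sox8 CRISPR replicate 2 gave -2.36 for msgn1.S, and leaving out sox8 CRISPR replicate 1 gave -0.32.

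**Figure D2:**
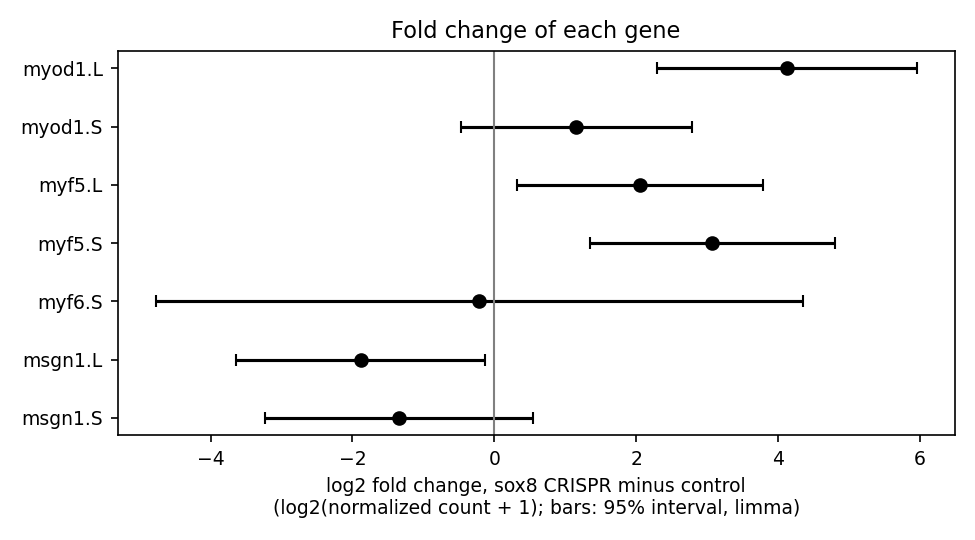
Log2 fold change of each gene (sox8 CRISPR minus control, on log2(normalized count + 1)) with its 95% interval from limma. The intervals of myod1.L, myf5.L and myf5.S lie above 0 and that of msgn1.L below it, before adjustment over all genes, while those of myod1.S, myf6.S and msgn1.S span 0.

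Replicates of a group differed by 1.38 to 6.31 times for the 6 genes other than myf6.S. In both groups the myogenic genes were all higher in replicate 2, by 2.43 to 2.71 times in sox8 CRISPR and by 2.05 to 6.31 times in controls. For msgn1.L and msgn1.S, replicate 2 was higher in sox8 CRISPR by 1.72 and 4.11 times, and replicate 1 was higher in controls by 1.38 and 1.81 times. The direction of each of these 6 genes was the same under all 13 alternatives, leaving out each library included. Much of this was fixed in advance. Leaving out low genes, dropping the trend or adding a replicate block does not alter the fold change. Leaving out 1 library cannot turn the sign where the groups are apart, as for myod1.L, myf5.L, myf5.S and msgn1.L. Fold changes ran between 2.80 and 5.44 for myod1.L, 0.52 and 1.80 for myod1.S, 1.34 and 2.76 for myf5.L, and 2.09 and 4.06 for myf5.S. They ran between -2.28 and -1.5 for msgn1.L and between -2.36 and -0.32 for msgn1.S. An exact permutation of 2 libraries against 2 cannot give a two-sided p below 0.333, so the tests rest on limma's spread shared over genes.

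Homeologs were then compared within each library, where the scaling of the library cancels. For myod1, the L copy gave 37.5% and 40.0% of the pair's reads in the sox8 CRISPR libraries (95% Wilson intervals 36.3 to 38.7 and 39.0 to 41.0), against 4.37% and 12.3% in controls (3.19 to 5.97 and 11.3 to 13.4). The intervals cover counting error only. The share of myod1.L was therefore higher in both sox8 CRISPR libraries, and the S copy remained the larger in all 4. For myf5, the L copy gave 53.6% and 54.1% in sox8 CRISPR, against 75.0% and 65.3% in controls. Here the L share was the lower in sox8 CRISPR, and the copies were closer to equal. For msgn1, the L copy gave 56.1% and 34.8% in sox8 CRISPR, against 51.4% and 58.0% in controls, which overlap. The median over 5109 homeolog pairs was 53.2% and 51.9% in sox8 CRISPR and 52.0% and 52.6% in controls. How many of all pairs had L shares that did not overlap between the groups was not computed.

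**Figure D3:**
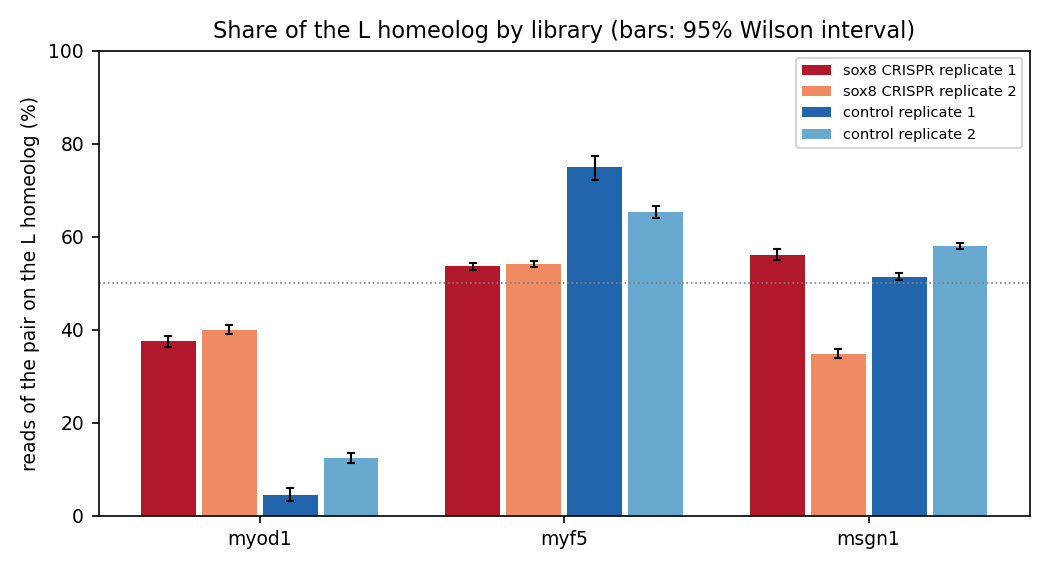
Share of each pair's reads on the L homeolog (%), by library, with sox8 CRISPR in red and orange left of control in blue shades, and error bars for the 95% Wilson interval. The myod1 bars stand at 37.5% and 40.0% in sox8 CRISPR and 4.37% and 12.3% in controls, and the myf5 bars run the other way; the dotted line is an equal share.

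The test of that difference was the fold change of L minus that of S, fitted by limma over 5640 pairs. For myod1 the fold change of L exceeded that of S by 2.97 on the log2 scale (SE 0.60, 95% interval 1.58 to 4.35). Its p was the 11th smallest of all pairs (limma, unadjusted p = 0.00114, adjusted p = 0.531). For myf5 the difference was -1.02 (SE 0.40, 95% interval -1.94 to -0.11; unadjusted p = 0.0326, adjusted p = 0.675). For msgn1 it was -0.55 (SE 0.46, 95% interval -1.61 to 0.51; adjusted p = 0.769), and without sox8 CRISPR replicate 2 it was 0.081. After adjustment the test called 0 of 5640 pairs (0.0%), and at an unadjusted p under 0.05 it passed 403 pairs (7.15%), myod1 and myf5 among them. The myod1 difference was 3.04 without sox8 CRISPR replicate 1 and 2.89 without sox8 CRISPR replicate 2. It was 2.16 without control replicate 1 and 3.77 without control replicate 2. How the authors' counting treated reads that match both homeologs was not given in the sources used here, so the split between L and S is uncertain to that extent.

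Summing the homeologs removes that split. Myod1 had 4143 and 10507 summed normalized counts in sox8 CRISPR, against 1321 and 2955 in controls. Myf5 had 9335 and 24673 in sox8 CRISPR, against 1677 and 4735 in controls. Msgn1 had 4494 and 12439 in sox8 CRISPR, against 27964 and 17903 in controls. No group overlapped another for any of the 3 genes, but the share of all summed pairs with groups apart was not computed. Among single genes 17% lay wholly above the controls and 19.1% wholly below. The log2 fold changes were 1.74 (SE 0.73) for myod1, 2.43 (SE 0.79) for myf5 and -1.58 (SE 0.81) for msgn1, with limma adjusted p of 0.610, 0.342 and 0.698, where 37 of 5640 sums, or 0.656%, were called. Leaving out sox8 CRISPR replicate 1 gave -0.85 for msgn1 and leaving out sox8 CRISPR replicate 2 gave -2.32, while myod1 gave 1.07 without sox8 CRISPR replicate 2 and 1.16 without control replicate 1.

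Levels were ordered per kb of gene span, introns included, since exon lengths were not used here. In sox8 CRISPR the order by mean level was msgn1.S at 9655 normalized counts per kb, msgn1.L at 3427, myf5.L at 3025, myf5.S at 2477, myod1.S at 1722, myod1.L at 1041 and myf6.S at 2.00. Every neighbour in this order overlapped the next across its 2 libraries, except myod1.L and myf6.S. In controls the order was msgn1.S at 20220 per kb, msgn1.L at 12379, myod1.S at 746, myf5.L at 717, myf5.S at 326, myod1.L at 76.4 and myf6.S at 1.70. There the libraries of both msgn1 copies were wholly above every myogenic gene, myod1.S and myf5.L overlapped, as did myf5.L and myf5.S, and myod1.L was apart from its neighbours on either side. The span of msgn1.S is 522 bases and that of msgn1.L 1000, so in controls, where msgn1.L had the higher mean count, the place of msgn1.S above it rests on the length used. In sox8 CRISPR msgn1.S had the higher mean count as well, at 5040 against 3427. The myf5 copies had still higher mean counts there, at 9174 for myf5.L and 7830 for myf5.S. Their spans, introns included, are 3033 and 3161 bases. The place of both msgn1 copies above myf5 in sox8 CRISPR therefore also rests on the length used. So does that of msgn1.L above myod1.S, whose mean count was 4446.

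Genes with the most similar profile were sought among 12056 genes with a mean normalized count of 50 or more, by the largest deviation in any of the 4 libraries between centred log2 profiles. For myod1.S these were ncs1.L, anks1a.S and slc25a44.S, with largest log2 deviations of 0.018, 0.064 and 0.15. For myf5.L they were fut8.S, irs2.L and ddost.L, at 0.14, 0.15 and 0.18. For msgn1.L they were wdr75.L, timp3.L and plekho1.L, at 0.14, 0.15 and 0.18. These profiles hold only 4 values each, and timp3.L, for example, had 31.9 and 60.4 normalized counts in sox8 CRISPR, against 164 and 130 in controls.

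The other genes of the pathway were described in 4 lists. Of 76 presomitic and paraxial mesoderm genes, the test called 1 lower and 0 higher, with 24 wholly below the controls, 15 wholly above and 37 overlapping. These are 31.6% below and 19.7% above, beside 19.1% and 17% of all genes. Paralogs of the hes5 family, from hes5.1.L to hes5.10.S, were a large part of the list and of the genes wholly below. The shares and the median count each paralog as a separate gene. At an unadjusted p under 0.05, 21 passed, DESeq2 called 10 and edgeR 2. Of all genes, 6.79% passed that p, limma called 0.334%, DESeq2 1.96% and edgeR 0.506%. The median log2 fold change of the list was -0.67, beside -0.16 over all genes. The called gene was meox2.S, a homeobox factor of somites, with 3.12 and 0 normalized counts in sox8 CRISPR, against 750 and 448 in controls (log2 fold change -8.16, SE 1.53; limma, adjusted p = 0.0212). The segmentation factor mesp2.S was at 0 in both sox8 CRISPR libraries, against 262 and 168 in controls, which is at least 78.2-fold lower against a floor of 3 reads per library (adjusted p = 0.104). The repressor ripply2.1.S ran the other way, with 83.1 and 183 in sox8 CRISPR, against 0 and 3.18 in controls (adjusted p = 0.343).

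Further genes of this list are given for their known ties to msgn1 and were chosen after their values were seen. The T-box factor tbx6.S, whose mouse counterpart acts beside Msgn1, had 463 and 340 normalized counts in sox8 CRISPR, against 4512 and 2151 in controls (log2 fold change -2.97; limma, adjusted p = 0.107). Its homeolog tbx6.L had 3510 and 1709 in sox8 CRISPR, against 2057 and 6776 in controls, which overlap. The segmentation factor mespb.S had 525 and 874 in sox8 CRISPR, against 5577 and 5704 in controls (adjusted p = 0.0914), and mespb.L had 874 and 3484, against 8878 and 4769. The pan-mesodermal factor tbxt.L had 5653 and 10617 in sox8 CRISPR and 5489 and 10121 in controls, a log2 fold change of 0.056 with overlapping groups. Its homeolog tbxt.S had 17460 and 18549 in sox8 CRISPR, against 7919 and 13989 in controls (log2 fold change 0.77). The groups of tbxt.S did not overlap. The related tbxt.2.L and tbxt.2.S also lay wholly above the controls, with log2 fold changes of 1.16 and 1.71. Other genes of the list, also picked with their values known, were mixed. The groups overlapped for pcdh8.2.L and pcdh8.2.S (log2 fold changes 0.23 and 0.32) and for hes7.2.L and hes7.2.S (-0.31 and -0.35). Aldh1a2.L lay wholly above the controls (2.24), aldh1a2.S overlapped them (-0.087), and dll1.L and dll1.S lay wholly below (-2.06 and -1.25).

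Of 35 muscle differentiation genes, for which 29 of 57 base symbols were measured, the test called 0 in either direction. At an unadjusted p under 0.05, 6 passed, and DESeq2 and edgeR called 1 each. Of all genes, 6.79% passed that p, limma called 0.334%, DESeq2 1.96% and edgeR 0.506%. The median log2 fold change of the list was 0.47. In it, 7 genes lay wholly above the controls (20%, beside 17% of all genes), 6 wholly below (17.1%, beside 19.1%) and 22 overlapped. The largest change by the naming rule was myl1.L, a light chain of fast muscle myosin, with 488 and 556 normalized counts in sox8 CRISPR, against 9.37 and 24.6 in controls (log2 fold change 5.0, SE 1.10; limma, adjusted p = 0.0649; DESeq2, 1.95e-05; edgeR, 0.0345). The acetylcholine receptor subunit chrna1.L had 382 and 52.0 in sox8 CRISPR, against 25 and 8.74 in controls (adjusted p = 0.719). The muscle transcription factor mef2c.S was on the low side, with 29.4 and 0 in sox8 CRISPR, against 133 and 88.2 in controls (adjusted p = 0.683).

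Of 25 bHLH partners and inhibitors of the myogenic factors, the test called 1 lower and 0 higher, with 6 wholly below the controls (24%, beside 19.1% of all genes), 5 wholly above (20%, beside 17%) and 14 overlapping, and a median of -0.43. At an unadjusted p under 0.05, 7 passed, DESeq2 called 7 and edgeR 3. Of all genes, 6.79% passed that p, limma called 0.334%, DESeq2 1.96% and edgeR 0.506%. The called gene was id2.L, an Id protein that withholds E proteins from Myod1 in mammals, with 98.7 and 238 normalized counts in sox8 CRISPR, against 2252 and 5412 in controls (log2 fold change -4.50, SE 0.76; limma, adjusted p = 0.00971). Its relatives id4.L and id4.S were also low: id4.L was at 0 in both sox8 CRISPR libraries, against 122 and 141 in controls (at least 47.7-fold lower; adjusted p = 0.195), and id4.S had 68.1 and 0, against 1159 and 660 (adjusted p = 0.0727). The bHLH factor twist1.L, which opposes Myod1 in mouse cells, had 626 and 241 in sox8 CRISPR, against 7.81 and 0.795 in controls (log2 fold change 6.61, SE 1.5; adjusted p = 0.0727). The E protein genes, named after their values were seen, did not pass the test: tcf12.L had 6289 and 7352 in sox8 CRISPR, against 5169 and 4815 in controls (log2 fold change 0.45), and tcf3.L had 3334 and 2107, against 2275 and 3184 (log2 fold change -0.022). Id3.L and id3.S, also named after their values were seen, were abundant in all libraries, with log2 fold changes of -0.43 and -0.18.

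Of 74 inducing signals and early mesodermal targets, the test called 2 lower and 0 higher, with 27 wholly below the controls (36.5%, beside 19.1% of all genes), 18 wholly above (24.3%, beside 17%) and 29 overlapping, and a median of -0.61. At an unadjusted p under 0.05, 25 passed, DESeq2 called 14 and edgeR 6. Of all genes, 6.79% passed that p, limma called 0.334%, DESeq2 1.96% and edgeR 0.506%. The called genes were evx1.L, a posterior and ventral homeobox gene, with 19.4 and 0 normalized counts in sox8 CRISPR, against 389 and 1837 in controls (log2 fold change -7.55, SE 1.48; limma, adjusted p = 0.0297), and rspo2.L, a secreted amplifier of Wnt signals, with 73.1 and 174 in sox8 CRISPR, against 2024 and 1385 in controls (log2 fold change -3.88, SE 0.77; adjusted p = 0.0328). The axial signal shh, which maintains myf5 in somites of the mouse, was at 0 in both controls for both homeologs: shh.S had 2034 and 59.2 in sox8 CRISPR (at least 296-fold higher by the mean; adjusted p = 0.0820) and shh.L had 399 and 143 (at least 76.5-fold higher by the mean; adjusted p = 0.0876). From sox8 CRISPR replicate 2 alone these bounds were 16.8-fold for shh.S and 40.3-fold for shh.L. The signals wnt8a, fgf8 and nodal of this list are added after their values were seen. The Wnt ligand wnt8a.S had 24.4 and 132 in sox8 CRISPR, against 857 and 1365 in controls (adjusted p = 0.0585), and wnt8a.L had 176 and 504, against 1894 and 2325 (adjusted p = 0.167). The ligand fgf8.L ran the other way, with 1603 and 1820 in sox8 CRISPR, against 379 and 425 in controls (limma, adjusted p = 0.423). Its homeolog fgf8.S also lay wholly above the controls. The other FGF ligands of the list were mixed: fgf20.L and fgf20.S lay wholly above, fgf3.L and fgf3.S wholly below, and fgf4.L and fgf4.S overlapped. The signal nodal.L had 1028 and 195 in sox8 CRISPR, against 3.12 and 7.95 in controls (limma, adjusted p = 0.0685). Its homeolog nodal.S overlapped, with 96.2 and 0 in sox8 CRISPR, against 3.12 and 4.77 in controls. With a pseudocount of 0.5 the limma adjusted p was 0.0509 for meox2.S, 0.0837 for evx1.L and 0.0561 for rspo2.L, so these calls were lost, while id2.L was still called. The call of meox2.S was also lost when genes with a mean under 50 were left out (adjusted p = 0.0720). With any 1 of the 4 libraries left out, limma called 0 genes in all, so that the calls of meox2.S, id2.L, evx1.L, rspo2.L and sox8.L were lost too, with 510 to 3972 genes at an unadjusted p under 0.05.

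**Figure D4:**
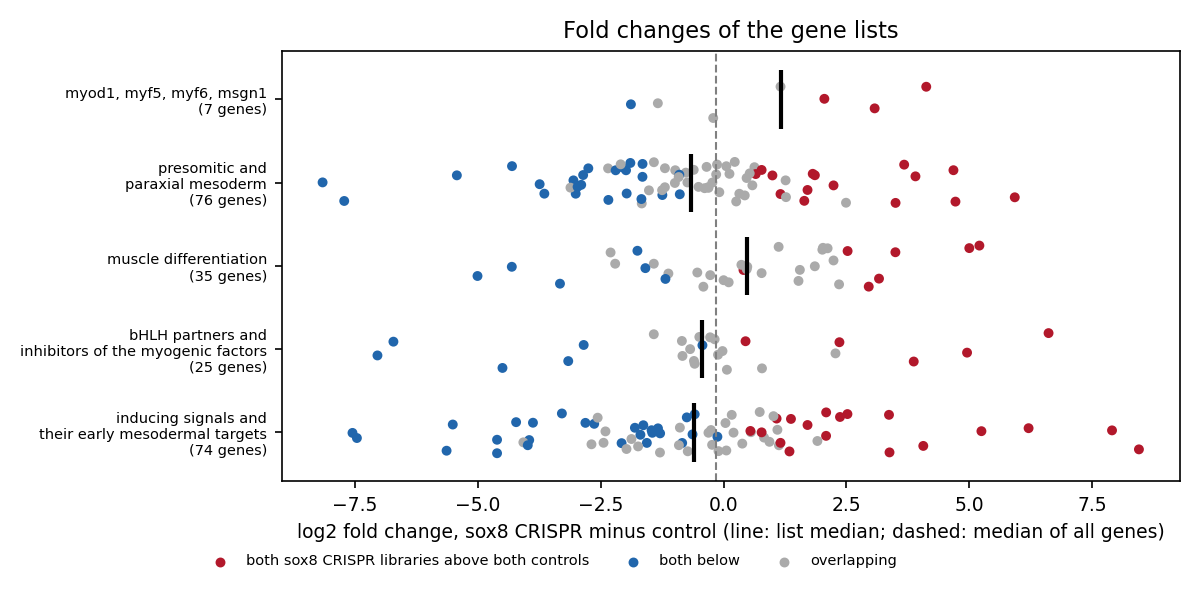
Log2 fold change (sox8 CRISPR minus control) of every gene of the members and the 4 lists, coloured by whether both sox8 CRISPR libraries lay above both controls (red), below both (blue) or overlapped them (grey), with black lines for list medians. The medians are 1.16 for the 7 members, -0.67, 0.47, -0.43 and -0.61 for the lists, and the dashed line is the median of all genes at -0.16.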

How the data were processed

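RNA was measured in 4 libraries of ventral tissue, 2 sox8 CRISPR and 2 control, made with Smart-seq2, which amplifies cDNA by PCR without molecular identifiers. The authors trimmed reads with cutadapt 4.4, removed ribosomal reads, mapped what remained onto the X. laevis v10.1 assembly by HISAT2 2.2.1, counted them per gene with featureCounts 2.0.6, removed genes with a mean under 5 and divided by DESeq2 size factors. Strand use and the treatment of reads matching several genes are not given in the sources used here. The deposited values are this normalized signal. In each library 1 read had a fixed worth (0.625 and 1.21 normalized counts in sox8 CRISPR, 1.56 and 0.795 in control), and division by it gave whole reads, within 0.1 read, for 100% of values. Coordinates are from RefSeq for the same assembly, which held 92.1% of the symbols.

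Values were transformed to log2(normalized count + 1) and tested in R 4.3.3 by limma 3.58.1, whose prior variance followed mean intensity. P-values were adjusted by Benjamini-Hochberg across the whole table of genes or of homeolog pairs. Fold changes on this scale understate the change of low genes. On the recovered reads, edgeR 4.0.16 called 109 genes and DESeq2 1.42.0 called 423. Other alternatives were pseudocounts of 0.5 and 5, a mean of 50 or more, TMM and quantile scaling, a fit without the trend, leaving out each library, the fold threshold on its own and a replicate block. Where this leaves a group with 1 library, that library is assumed to vary as the other group does. The fits were tested on simulated data. Sources do not say that replicates came from separate clutches, so p-values measure the spread between these libraries, which may be partly technical. Intervals on read shares cover counting error only.

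The members, the gene lists and the markers were chosen with earlier results of these data known. Each list names its called genes and the 3 largest changes among genes with a mean of 50 or more and groups apart; others are stated as chosen afterwards. The sums of homeologs were added after seeing the data. Exon lengths were not used here, so levels are per kb of gene span, and no sequences are shown.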

Additional observations from a re-analysis of the deposited data

How the results depend on the processing

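For all genes, 72 were called by limma. The count was 153 with a pseudocount of 5, 199 with quantile normalization, 0 without the intensity trend (1450 at an unadjusted p under 0.05), 109 with edgeR, 423 with DESeq2, 14493 with the fold threshold alone and 0 to 0 with 1 library left out. Of the 7 members, 0 were called by limma. The count was 1 (myod1.L) with a pseudocount of 5 or a mean of 50 or more, 2 (myod1.L and myf5.S) with quantile normalization or DESeq2, and 6 with the fold threshold alone. Over the fits that kept all 4 libraries, the adjusted p of myod1.L ranged between 0.00159 and 0.591. That of myf5.S ranged between 0.0140 and 0.704. For homeolog pairs, 0 were called, and 0 to 752 with 1 library left out. The fold change of myf6.S was 0.22 with quantile normalization, 0.16 with edgeR, 0.21 with DESeq2 and between -1.60 and 1.18 with 1 library left out, and the msgn1 homeolog difference lay between -1.18 and 0.081 with 1 library left out. Ordering levels by the median of ranks gave 2 ties and reversed no order. The ties were msgn1.L with myf5.L in sox8 CRISPR and myod1.S with myf5.L in controls. The cause of these shifts was not tested. The median fold change of all genes was -0.16, and -0.11 with TMM scaling and -0.021 with quantile normalization.

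The labels number the replicates in both groups, but the sources do not say whether equal numbers pair samples. Deviations of replicate 1 correlated at -0.36 between groups over 13718 genes. With the replicate block, 86 genes, 1 member (myod1.L, adjusted p = 0.0137) and 38 homeolog pairs were called, and the myod1 homeolog difference had an adjusted p of 0.00101. With the crossed pairing, chosen after seeing the data, 776 genes and 4 members were called. The planned level order per exon length was not run, since gene spans alone were used. Each group held 2 libraries, and read depth was lowest for myf6.S and for myod1.L in control replicate 1.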

Other observations

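Setting the members against each other within a library, which removes its scaling, gave a ratio chosen after the values were seen. The summed counts of myod1 and myf5 were 3.00 and 2.83 times those of msgn1 in the sox8 CRISPR libraries, against 0.107 and 0.430 times in the control libraries. The myogenic sum was 13478 and 35179 normalized counts in sox8 CRISPR and 2998 and 7691 in controls. The groups did not overlap in the ratio. No test was made, since the ratio was chosen on these values.

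A few other genes of the lists are given here, picked with their values known. The segmentation-related repressor gene hes4.L had 465 and 840 normalized counts in sox8 CRISPR, against 45.3 and 65.2 in controls (limma, adjusted p = 0.135). The mesendodermal T-box gene eomes.S had 197 and 230 in sox8 CRISPR, against 10.9 and 12.7 in controls (adjusted p = 0.375). The posterior Hox regulator cdx4.L had 5444 and 3893 in sox8 CRISPR, against 26673 and 14124 in controls (adjusted p = 0.691).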
